A study of Homo sapiens with 6 samples.

Results

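The regions described here are stretches of open chromatin that were called as a peak in both libraries of naïve SK-N-AS cells and in no library of the indisulam-resistant cells R1 and R2. They were found by joining all overlapping peaks of 6 lists on chromosomes 1 to 22 and were selected on the peak calls themselves, so the difference between naïve and resistant cells is how they were chosen and is given as a description with no test. Of 370072 joined regions, 647 met this rule, which is 0.175% of all regions and 1.24% of the 52153 regions with a peak in both naïve lists. They are called naïve-only regions below, and the remaining 51506 are called the other both-naïve regions. The number rests on each of 3 libraries: 2632 regions met the rule without the first naïve library, where a peak in the remaining naïve list was asked for, 7926 without the second, and 1536 without the first R1 library.

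SK-N-AS is a human neuroblastoma cell line, and indisulam is a drug that brings the splicing factor RBM39 to the DCAF15 ubiquitin ligase for degradation. The naïve cells were grown out of SK-N-AS xenografts of mice given vehicle, and R1 and R2 were grown out of indisulam-resistant SK-N-AS tumors, taken at the second relapse while the third cycle of the drug was being given. Each of the 3 cell types had 2 ATAC-seq libraries of 100000 cells, and the cultures themselves were given no drug. R1 and R2 are single lines, the methods do not say whether the 2 libraries of a line are separate cultures, and with 2 naïve and 4 resistant libraries no exact test could pass the usual threshold. Promoters of 9 of 10 genes of the neuroblastoma lineage and 7 of 10 genes of a mesenchymal state had a peak in all 6 lists, against 1 of 7 genes of blood and endothelium.

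In ATAC-seq, Tn5, a transposase, inserts adapters into DNA that nucleosomes leave bare, so a peak marks a promoter, an enhancer or another open element. Promoters tend to be open in most cells, whereas enhancers away from promoters are open in a cell type or state and are held open by the factors that bind them. AP-1, a dimer of JUN and FOS proteins, and TEAD, the DNA-binding partner of YAP and TAZ, are known for opening enhancers of mesenchymal and migratory cells. SK-N-AS is known as a neuroblastoma line of the mesenchymal type.

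Around the summits of 5 of the 10 strongest naïve-only regions, the DNA is shown to let the motifs be seen in place. Strength here is the mean percentile rank by p in both naïve lists. Each run is 201 bases of the plus strand of hg38 with the summit of the stronger naïve peak at its middle base, and capitals mark the motifs that were searched. Of these, 3 hold the AP-1 motif TGANTCA. The run in PTPRC is shown because it holds TEAD, RUNX, GATA and NFY motifs in place of AP-1, and the run in FHAD1 because it holds none of the motifs. In the order shown they lie at chr18:35463180-35463380, chr1:15283542-15283742, chr1:211917983-211918183, chr3:4416985-4417185 and chr1:198669181-198669381.
INO80C intron: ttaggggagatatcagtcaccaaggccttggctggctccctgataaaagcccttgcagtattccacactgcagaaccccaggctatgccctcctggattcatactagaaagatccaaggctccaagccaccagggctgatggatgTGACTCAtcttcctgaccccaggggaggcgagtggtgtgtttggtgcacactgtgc
FHAD1 intron: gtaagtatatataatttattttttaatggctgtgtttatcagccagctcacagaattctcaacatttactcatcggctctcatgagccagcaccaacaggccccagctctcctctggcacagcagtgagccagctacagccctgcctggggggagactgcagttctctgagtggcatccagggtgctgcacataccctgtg
Between genes on chromosome 1: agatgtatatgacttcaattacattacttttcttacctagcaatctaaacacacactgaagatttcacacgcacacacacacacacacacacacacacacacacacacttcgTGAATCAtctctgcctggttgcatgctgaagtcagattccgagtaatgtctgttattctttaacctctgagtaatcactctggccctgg
SUMF1 intron: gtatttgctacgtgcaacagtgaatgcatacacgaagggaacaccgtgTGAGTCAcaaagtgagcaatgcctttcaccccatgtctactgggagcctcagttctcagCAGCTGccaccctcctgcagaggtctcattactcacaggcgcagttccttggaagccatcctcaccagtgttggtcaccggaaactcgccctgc
PTPRC intron: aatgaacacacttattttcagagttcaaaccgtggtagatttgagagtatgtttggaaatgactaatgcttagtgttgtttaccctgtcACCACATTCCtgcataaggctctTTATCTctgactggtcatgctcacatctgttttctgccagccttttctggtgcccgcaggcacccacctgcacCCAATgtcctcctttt
In the INO80C run the AP-1 motif lies to the right of the summit and runs just past the 50 bp on either side used for the shares below, so it is not counted there, and in the SUMF1 run it crosses that limit on the left. The FHAD1 run holds none of the 12 motifs. In the PTPRC run the capitals ACCACATTCC are a RUNX motif and a TEAD motif that share bases, both on the minus strand.

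The strongest region lay in an intron of INO80C, a subunit of the INO80 chromatin remodeller, and had a pileup of 29 tags in the first naïve library and 26 in the second. Pileup is the number of overlapping extended tags at a summit and was recovered from the deposited values of each peak. The region in an intron of FHAD1 had 34 and 22 tags, and the one 46 bp from a start site of FHL2, a LIM domain protein that binds transcription factors, had 34 and 20. The intergenic region of chromosome 1 had 38 and 19 tags, and that in SUMF1, a gene for an enzyme that activates sulfatases, had 32 and 20. PTPRC encodes CD45, the phosphatase of white blood cells, and its promoter had no peak in any of the 6 lists, while its intron held a naïve-only region of 41 and 17 tags. These 6 regions were at percentile 83.7 or above in both naïve lists.

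Also among the 10 strongest were a region 105 bp from a start site of EML1, a microtubule-associated protein, with 24 and 20 tags, and 2 at the 3′ end of CHRM3. CHRM3 encodes a muscarinic acetylcholine receptor. An exon near that end held naïve-only regions of 39 and 16 tags and of 30 and 17 tags, 2 of the 3 in that gene, and the third, in an intron, had 29 and 12 tags. AP-1 motifs lay within 50 bp of the summit in 2 of these 3. None of the 10 strongest regions was on chromosome 19, which held the most naïve-only regions.

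Beside the other both-naïve regions, the naïve-only regions were weak peaks as a group. Their pileup ranged from 10 to 44 tags in the first naïve library, with a median of 16, and from 7 to 26 in the second, with a median of 11. The other both-naïve regions had medians of 19 and 13 tags and reached 3623 and 3101. Among all peaks of a naïve list, the median naïve-only region was at percentile 60.6 in the first and 41.1 in the second. For the other both-naïve regions these were 76.5 and 64.1. The lowest pileup called at all was 9 tags in the first naïve list and 7 in the second, so the weakest naïve-only regions sat at the edge of detection. For a comparison with other weak regions, 22584 other both-naïve regions with at most 19 and 13 tags are called the low-pileup set. These limits are the third quartiles of the naïve-only regions, which were not capped and reach 44 and 26 tags. The low-pileup set is thus not fully matched to them in strength. In 643 of the 647 regions each naïve list had 1 peak, and the summits of the naïve lists lay within 100 bp of each other in 77.1%, with a median distance of 50 bp. Only 3 had identical coordinates in both lists.

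How much a missing peak says differs between R1 and R2, because the R1 libraries were deep and the R2 libraries shallow. The background rate was 7.94 and 5.43 tags per window in the R1 libraries, 2.29 and 1.35 in the naïve and 0.850 and 0.899 in the R2 libraries. Scaled by these rates, the median naïve-only region would have 60.6 tags in the first R1 library, where the lowest called pileup was 18, and 41.5 tags in the second, where it was 14. All 647 regions lay above the lowest called pileup of both R1 libraries, the lowest of them at 39.7 scaled tags in the first, as would any peak of the naïve lists at this difference in depth. In R2 the scaled medians were 6.49 and 6.86 tags against a lowest called pileup of 6 in both libraries. There, 431 of the 647 regions lay at or above that level in both, and so in all 4 resistant libraries. The remaining ones lay below it in at least 1 R2 library, where by this scaling the naïve level fell short of the lowest called pileup. With depth scaled by the regions with a peak in all 6 lists instead, 634 lay at or above it in all 4 resistant libraries. The number above the level of all resistant libraries left was 1654 without the first naïve library, 1180 without the second and 887 without the first R1 library.

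**Figure D1:**
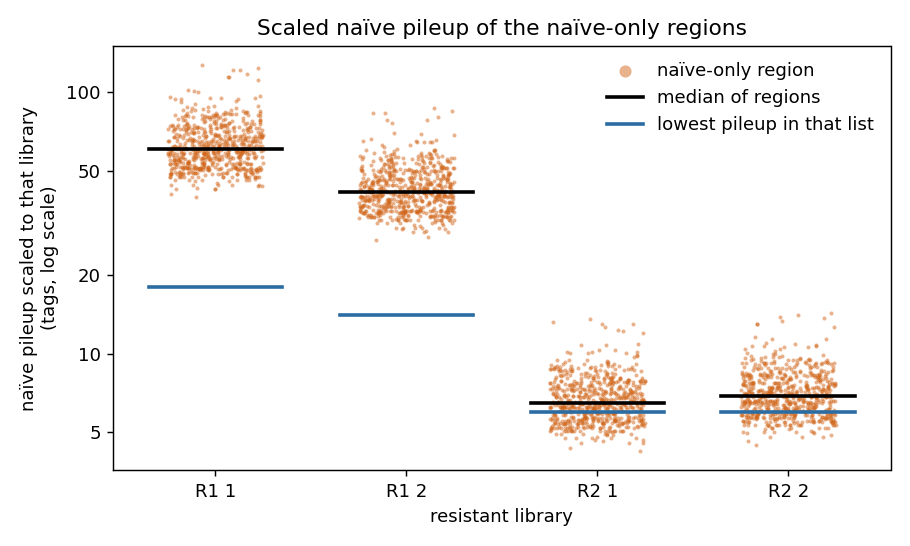
Each point is 1 of the 647 naïve-only regions, at the mean of its naïve pileups scaled by background rate to the depth of each resistant library (tags, log scale), with the median in black and the lowest pileup called in that list in blue. In both R1 libraries all points lie above the blue line, from 39.7 tags up in the first, while in R2 the medians of 6.49 and 6.86 lie close to the lowest called 6 tags.

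The same scaling was read in the low-pileup set, whose regions have a peak in at least 1 resistant list by definition, so that its shares with an R1 peak are in part set by how it was drawn. Of its 22584 regions, 99.2% had a peak in the first R1 library and 96.9% in the second, against 26.7% and 30.5% in the R2 libraries. Where a peak was called, and so only above the lowest called level, the R1 pileup had a median of 83.8% and 85.7% of the scaled naïve pileup, and 5% of regions lay below 52.2% and 54.7%. The lowest called pileup was 29.7% and 33.7% of the scaled naïve pileup of the median naïve-only region. A peak narrower than 200 bp was never listed, so a short stretch above these levels could still be missing from the R1 lists.

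Just outside the rule were 1036 both-naïve regions with a peak in 1 resistant list. Of these, 761 had it in the first R1 list, at 20 to 60 tags with a median of 29, and 164 in the second R1 list, at a median of 20. The R2 lists accounted for 52 and 59, at a median of 10 tags in each. Just inside, 93 naïve-only regions (14.4%) had a resistant peak within 200 bp of their edge and 283 (43.7%) within 1000 bp. The median distance to the nearest resistant peak was 1413 bp and the greatest 444257 bp. A further 7217 regions were found in the first naïve list only and 1888 in the second only, with no resistant peak.

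Naïve-only regions were unevenly spread over the chromosomes. Chromosome 19 held 140 of them (21.6%), against 10.5% of the other both-naïve regions, and chromosome 7 held 98 (15.1%), against 6.59%. Chromosomes 1 and 10 held 73 (11.3%), against 14.5%, and 43 (6.65%), against 4.67%, and chromosome 3 held 39 (6.03%), against 2.76%. Chromosome 17 held 11 (1.70%), against 8.16%, and chromosomes 20 and 22 held 1 each (0.155%), against 3.38% and 2.04%. The region on chromosome 20 lay in MACROD2 with 16 and 11 tags and that on chromosome 22 in TBC1D22A with 12 and 9.

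**Figure D2:**
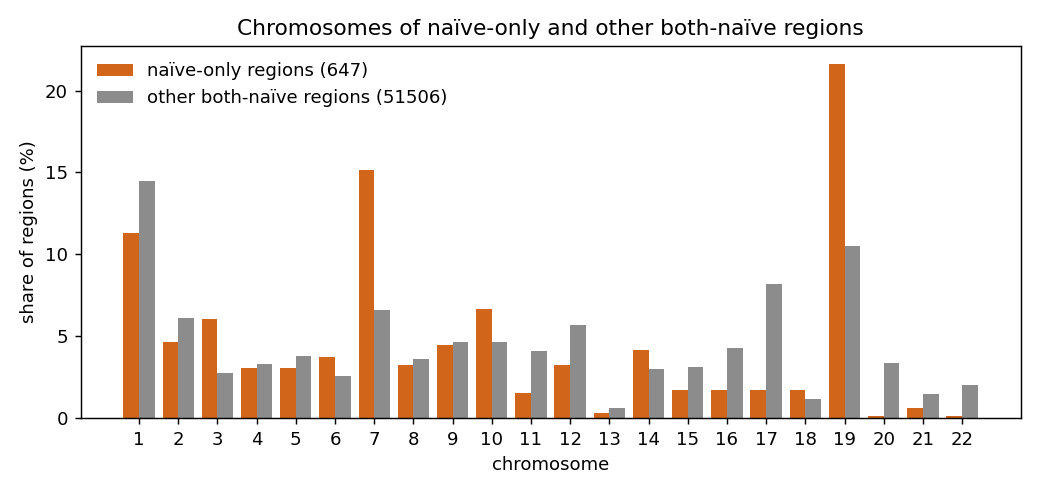
Bars give the share (%) of the 647 naïve-only regions in orange and of the 51506 other both-naïve regions in grey on each autosome. The orange bars stand at 21.6% on chromosome 19 and 15.1% on chromosome 7, and the grey bars there at 10.5% and 6.59%.

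Within these chromosomes they lay in a few stretches. The first 20 Mb of chromosome 19 held 130 (20.1%, 95% Wilson interval 17.2 to 23.4), against 6.95% of the other both-naïve regions and 6.38% of the low-pileup set. Chromosome 7 from 120 to 150 Mb held 72 (11.1%, 8.93 to 13.8), against 1.13% and 1.11%. With naïve peaks of a −log10 q of at least 5 only, the share on the first 20 Mb of chromosome 19 was 12.2%, against 7.33% of the other both-naïve regions, and with peaks up to 1000 bp apart merged it was 10.4%, against 4.27%. Together the stretches of chromosomes 19 and 7 hold 202 regions and are called the clustered stretches, and the other 445 regions are called scattered. Scattered means outside these stretches only. It includes neighbouring regions described below, 12 on chromosome 6, 7 on chromosome 7 near CAV2 and 5 on chromosome 9. The stretches were drawn after the positions were seen. In all, 179 of 294 bins of 10 Mb held at least 1 naïve-only region, and 279 of the regions (43.1%) had no other within 500 kb.

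Regions no more than 500 kb from the next formed 16 runs of 5 or more, with 205 regions (31.7%). The longest run by number was at the tip of chromosome 19, chr19:281446-1736137, with 36 naïve-only regions among 386 both-naïve regions (9.33%), and 11 of the 36 lay within 1000 bp of a start site. SHC2, an adaptor protein of receptor tyrosine kinases, held 9 of them among its 21 both-naïve regions, with 12 to 19 tags in the first naïve library and 8 to 18 in the second. In the same run, MADCAM1, PALM, POLRMT and PRSS57 held 3 each. All 3 both-naïve regions of PRSS57, a serine protease of neutrophils, were naïve-only.
A further 3 runs of chromosome 19 followed, chr19:17042722-19622908 with 26 of 686, chr19:12787958-15506802 with 22 of 438 and chr19:2659869-4594628 with 16 of 502. The run from 12787958 opened with a region of 15 and 10 tags whose summit lay 952 bp from the start of JUNB, a subunit of AP-1.

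On chromosome 7, the run chr7:130530538-132742468 held 24 naïve-only regions among 114 (21.1%), and 9 were in PLXNA4, a receptor for semaphorins that guide axons, among its 33 both-naïve regions. None of the 9 lay at a start site. Runs of 9 each began at 128756214, 139321124 and 142372212, and the middle one held regions in HIPK2, a kinase that acts on p53 (4 of 17), and in TBXAS1, the thromboxane synthase (3 of 14). The run chr6:41186074-44050693 had 12 of 206, with 3 of the 6 both-naïve regions of TRERF1.
A further 2 runs were picked out after their values were seen. At chr7:116271999-117219758, 7 of 16 both-naïve regions (43.8%) were naïve-only, in or near CAV2, a caveolin, CAPZA2 and ST7, with 20 to 34 tags in the first naïve library and 10 to 16 in the second. At chr9:121876629-122395094, 5 of 29 (17.2%) were, 4 of them in TTLL11, a tubulin-modifying enzyme.

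Whether the neighbourhood of the naïve-only regions was also lower in the resistant cells was read from 23750 regions with a peak in all 6 lists. Their log2 pileup ratio of resistant over naïve cells was centred on its median over all such regions. Within 1 Mb of naïve-only regions on the first 20 Mb of chromosome 19, 942 shared regions had a median log2 ratio of -0.55 in R1 and -0.43 in R2, and 94.2% and 92.3% of them lay below 0. Within 1 Mb of those on chromosome 7 from 120 to 150 Mb, 162 shared regions had medians of -0.41 and -0.34. Around the scattered regions the medians over 6086 shared regions were -0.05 and -0.02. Counted by region, the local median was below 0 in both resistant lines at all 130 naïve-only regions of the stretch on chromosome 19 and all 72 of that on chromosome 7. Of the 445 scattered regions, 420 had the 3 shared regions needed, and their local median was below 0 at 196 in R1, at 212 in R2 and at 133 in both. Thus shared peaks were lower around the clustered regions in both lines and lay about evenly on either side of 0 around the scattered ones. The part of this lower level in the missing peaks was not tested.
The run of chromosome 6, counted among the scattered regions, differed between the lines, with a median of -0.73 in R1 and -0.04 in R2 over 70 shared regions. At the run near CAV2 only 3 regions were shared, with medians of 0.06 in R1 and -0.33 in R2.

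**Figure D3:**
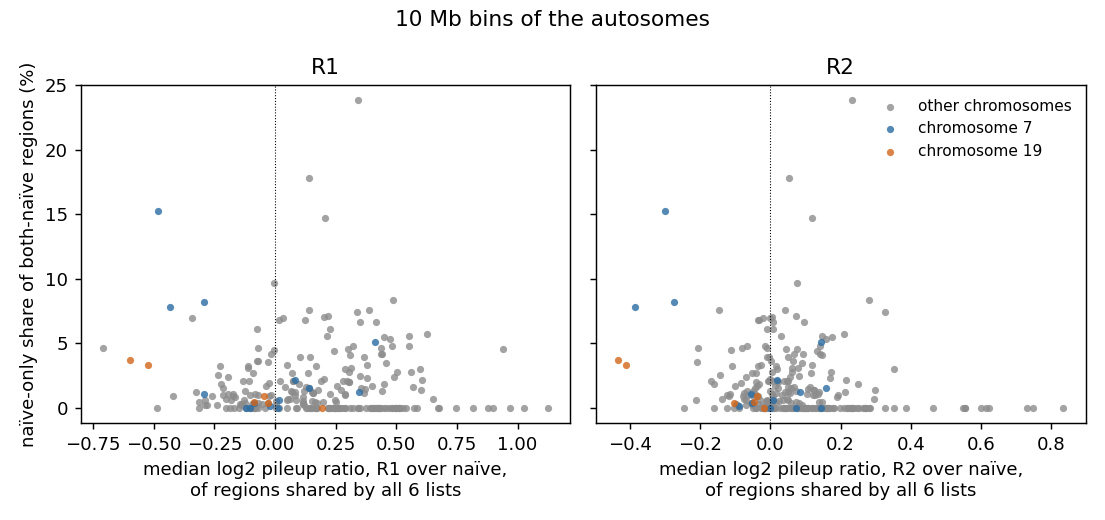
Each point is a bin of 10 Mb with at least 20 both-naïve and 10 shared regions (260 bins), at the median centred log2 pileup ratio of its shared regions in R1 (left) or R2 (right) and the share (%) of its both-naïve regions that were naïve-only. Bins of chromosomes 7 and 19 with many naïve-only regions, such as 15.2% (41 of 269) on chromosome 7 from 130 to 140 Mb, lie left of 0. Shares of 23.8%, 17.8% and 14.7% were reached in bins of chromosomes 6, 3 and 1 right of 0. These rest on few regions, 5 of 21, 8 of 45 and 5 of 34.

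Naïve-only regions lay away from promoters. A start site lay within 1000 bp of the summit in 75 (11.6%, 9.35 to 14.3), against 35.9% of the other both-naïve regions and 21.0% of the low-pileup set. A further 388 (60.0%) lay in introns, 155 (24.0%) between genes and 29 (4.48%) in exons, 14 of all summits falling in coding sequence. Introns held 44.7% and exons 9.60% of the low-pileup set. The median distance to a start site was 6458 bp, against 2856 bp for the other both-naïve regions. Their DNA was also poorer in G and C, with a median GC content of 46.7% over 250 bp either side of the summit, against 58.7% in the other both-naïve regions and 56.9% in the low-pileup set. Among the 20000 peaks of best p, the median GC content was alike in all lists, from 62.3% to 63.7%. Among the 20000 of worst p it was 50.1% and 50.9% in R1, 54.3% and 56.3% in the naïve lists and 59.3% and 58.9% in R2. The part of these differences in the missing peaks was not tested.

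Of the 12 motifs, AP-1 was the one in which the naïve-only regions stood farthest from the low-pileup set. TGANTCA lay within 50 bp of the summit, on either strand, in 183 of the 647 (28.3%, 24.95 to 31.9), against 6.20% of the other both-naïve regions and 4.23% of the low-pileup set in windows of the same length. Of the motifs in these windows, 157 were TGACTCA, the standard site of JUN and FOS dimers, and 43 were TGAATCA, each read on either strand, and 17 regions held at least 2. The share was 36.9% (32.5 to 41.4) in the 445 scattered regions and 9.41% (6.10 to 14.2) in the 202 clustered ones. In the low-pileup set it was 4.31% outside and 3.19% inside those stretches. The share was 10.8% without the first naïve library and 14.3% without the second, where a peak in 1 naïve list was enough, against 5.06% and 5.82% of the other regions of the remaining naïve list.
Within 100 bp of the summit, 42.7% of the naïve-only regions and 55.7% of the scattered ones held the motif, against 7.55% of the low-pileup set. In windows of the same length centred 500 bp to the left and right of the summit, the naïve-only regions held it in 3.09% and 4.33%, so the motif was concentrated at the summits. The naïve-only regions were also narrower, with a median merged width of 323 bp against 1352 bp in the low-pileup set. That gap is in part set by the rule, since the low-pileup regions are merged with resistant peaks and the naïve-only regions are not. Taken alone, the peaks of the naïve-only regions in the first and second naïve lists had median widths of 268 and 230 bp. Those of the low-pileup set had 352 and 277 bp. The sets were not matched in width, and the part of width in the motif shares was not tested. Motif centres lay on average to the right of summits in all 6 lists, with medians of 9 to 27 bp for AP-1 and 28 to 33 bp for CTCF, and the windows were left centred on the summits as deposited.

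**Figure D4:**
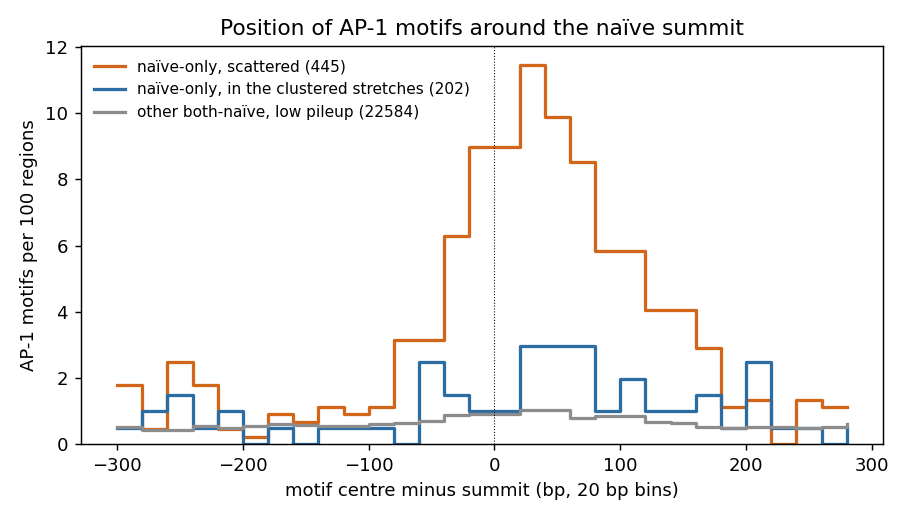
Lines give the number of AP-1 motifs per 100 regions in bins of 20 bp by distance from the naïve summit (bp) in 445 scattered and 202 clustered naïve-only regions and in 22584 other both-naïve regions of low pileup. The scattered regions peak at 11.5 per 100 just right of the summit, where the low-pileup set has 1.02.

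Since GC content and distance from start sites differ between these sets, the share was also taken at like values, a choice made after the data were seen. Among regions with a GC content of 40 to 50% more than 1000 bp from a start site, AP-1 was held by 122 of 376 naïve-only regions (32.4%, 27.9 to 37.3), 241 of 2128 of the low-pileup set (11.3%, 10.1 to 12.7) and 841 of 4419 other both-naïve regions (17.9% to 20.2%). The gap was thus narrower at like GC and distance. The intervals cover counting error only and are not a test of this gap, and the sets were not matched in strength. AP-1 became more frequent with the strength of the naïve peak. Of naïve-only regions with a mean percentile of 20 to 40, 13.5% held it, of those at 40 to 60, 28.8%, at 60 to 80, 44.1%, and at 80 or more, 18 of 34 (52.9%). In the other both-naïve regions the same steps gave 3.69%, 5.13%, 7.16% and 7.78%. At a GC content of 40 to 50% and away from start sites the share rose with strength in both sets, with 17.05%, 31.5%, 46.6% and 55.0% in the naïve-only regions, the last over 20 regions, and 6.66%, 15.7%, 24.0% and 28.1% in the others.

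The share with AP-1 differed with the resistant lists that also held a peak. Both-naïve regions with a peak in the R2 lists but in neither R1 list numbered 150, and 73 of them (48.7%, 40.8 to 56.6) held AP-1. With a peak in 1 R1 list and no R2 list, 130 of 925 (14.1%, 12.0 to 16.4) did, and with a peak in both R1 lists and no R2 list, 808 of 15682 (5.15%). Regions with a peak in all 4 resistant lists held it in 6.08%. The 150 regions had medians of 21 and 13 tags in the naïve libraries and a GC content of 43.5%, and 3.33% of them lay in the clustered stretches. In the opposite set, 886 regions with a peak in all 4 resistant lists and in neither naïve list, 44 (4.97%, 3.72 to 6.60) held AP-1 at the summit of the strongest resistant peak. These groups of lists were compared after the data were seen.

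**Figure D5:**
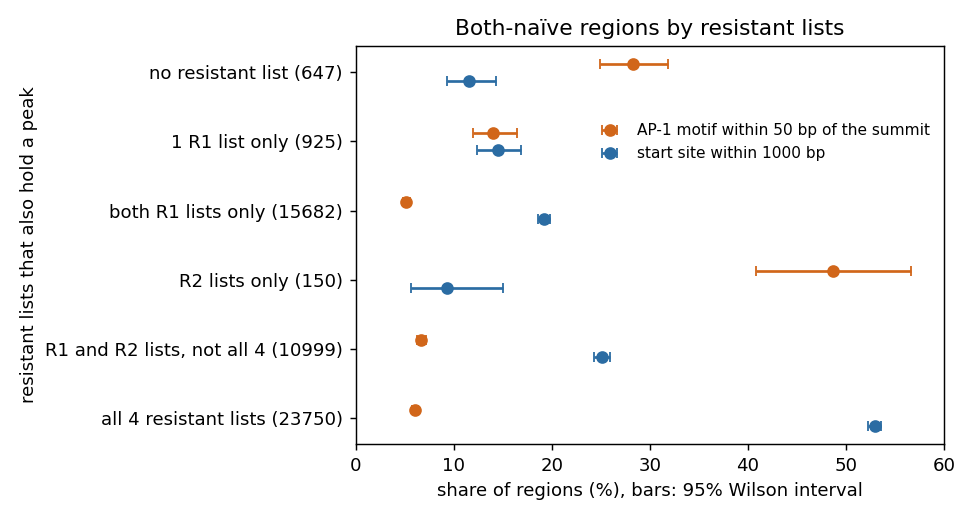
For both-naïve regions grouped by the resistant lists that also held a peak (number of regions in brackets), points give the share (%) with an AP-1 motif within 50 bp of the summit in orange and with a start site within 1000 bp in blue, with 95% Wilson intervals. AP-1 stands at 48.7% without R1 but with R2 peaks, at 28.3% in the naïve-only regions and at 5.15% to 6.71% in the groups with peaks in both R1 lists or in R1 and R2 lists.

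Regions with an AP-1 motif were somewhat stronger than those without, at medians of 18 and 12 tags against 15 and 11. Of the 183, 19 (10.4%) lay in the clustered stretches, against 39.4% of the 464 without, and 14 (7.65%) had a start site within 1000 bp, against 13.1%. A bin picked out after its values were seen was chromosome 3 from 170 to 180 Mb. There, 8 of 45 both-naïve regions were naïve-only, and 7 of the 8 held AP-1. They included regions in FNDC3B with 17 and 14 tags, in KCNMB2, a subunit of a potassium channel, with 20 and 17, in NAALADL2 with 23 and 13, and one 10 bp from a start site of USP13, a deubiquitinase, with 18 and 12. Among the runs, 2 of 36 at the tip of chromosome 19 and 2 of 24 around PLXNA4 held it. Higher shares were found in smaller runs, with 3 of 9 at chr7:139321124-140343059. At chr7:127905646-128245383 and chr9:121876629-122395094, 2 of 5 held it in each.

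The other motifs separated the sets less. TEAD (GGAATG) was found in 57 (8.81%, 6.86 to 11.2), against 5.58% of the low-pileup set, and in 6.18% and 6.49% of the windows 500 bp away. In the scattered regions it was in 11.0% at the summit and in 5.84% and 7.42% of the windows beside it. AGATAA, read by GATA factors, was found in 53 (8.19%, 6.32 to 10.6), against 1.85% of the low-pileup set, but in 6.18% and 7.42% of the windows 500 bp away, so it was not concentrated at the summits. RUNX (TGTGGT) was in 10.2% against 7.41%, NFY (CCAAT) in 13.3% against 8.55% and homeobox (TAATTA) in 1.70% against 0.407%. The E-box CAGCTG, read by ASCL factors, was in 9.43% against 10.5%. In the windows 500 bp left and right of the naïve-only summits, CAGCTG was in 4.02% and 3.25%, so it was more frequent at the summits. The E-box CACGTG, the site of MYC and MAX, was in 9 regions (1.39%), against 2.56%. GGGCGG, the GC box of SP and KLF factors, was in 17 (2.63%), against 8.56%, and the ETS site CCGGAAG in 4 (0.618%), against 1.07%. At like GC and distance most of these gaps were small, with the GC box in 1.60% of the naïve-only regions and 1.97% of the low-pileup set, homeobox in 2.13% and 1.41%, RUNX in 9.84% and 9.59%, TEAD in 9.57% and 6.72%, NFY in 14.9% and 11.7% and the GATA motif in 7.71% and 4.37%.
CTCF, the insulator factor, and the CRE site TGACGTCA were in none of the 647, where the interval reaches 0.590%. CTCF was in 1.10% and CRE in 0.151% of the low-pileup set, and CTCF in 2.16% of its 2128 regions of like GC and distance. None of the 12 motifs was found in 257 naïve-only regions (39.7%).

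By gene, 444 of the 647 regions (68.6%) lay in a protein-coding gene or up to 10 kb before it. They fell in 434 genes, which is 2.98% of the 14546 genes with a both-naïve region, and 47 genes held at least 2. Beside those above, SND1, a nuclease-like coactivator, held 3 of 19, PRKCA, a protein kinase C, 3 of 24, and FHAD1 2 of 14. Among adrenergic factors, the transcription factors of the noradrenergic neuroblastoma state, 1 of 16 genes with a both-naïve region had a naïve-only one, TFAP2B, with 11 and 12 tags in an exon. Among mesenchymal factors 1 of 19 did, the JUNB region above. Of drug efflux pumps 2 of 7 did, ABCC1 with 13 and 12 tags in an intron and ABCC2 with 19 and 9 at 2587 bp from its start. None did among 8 genes of the Hippo pathway, 9 of the indisulam axis with RBM39 and DCAF15, and 16 neuroblastoma drivers. Of 373 zinc finger genes, 8 did (2.14%): ZNF333, ZNF367, ZNF407, ZNF423, ZNF444, ZNF554, ZNF77 and ZNF774. The small lists rest on 0 to 2 such genes each, and their shares were not tested against the 2.98% of all genes.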

How the data were processed

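Open chromatin was profiled in 6 ATAC-seq libraries of SK-N-AS xenograft cells, 2 each of naïve, R1 and R2 cells. As the methods describe, the authors aligned reads with BWA, marked duplicates with Picard, filtered with SAMtools, shifted reads for the Tn5 insertion by +4 or -5 bp, and ran MACS2 on every library separately at q 0.01 (extension 200 bp, shift 100 bp). The submitters' processing notes give BWA 0.7.12-r1039, Picard 1.65, SAMtools 1.3.1, MACS2 2.2.7.1 and bedtools 2.25.0, and name both hg19 and hg38, while the methods name hg19. The last peak of each chromosome ends within its hg38 length, 9929 bp short of it on chromosome 22, so the lists were read as hg38 with GENCODE release 44.

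For every peak the authors deposited its fold enrichment, a ratio of pileup to background, with its p-value and q-value as −log10. Pileup and background rate were recovered from fold and p under the Poisson model, and all pileups came out whole within 0.001 tags. Only relative depth can be known this way, and intervals cover counting error only. Peaks sharing at least 1 base were merged. Percentile rank is by p within a list. Start sites, exons and genes are those of GENCODE, and a gene's body was extended by 10 kb upstream. Motifs were searched on both strands, and windows may hold several. TGANTCA does not match CRE, and other motifs may overlap.

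The regions, gene lists and motifs were chosen with earlier results of these data known. Regions named singly are the 10 of best mean percentile, of which 1 is not reported here, and runs of 5 or more, at most 10. Genes named singly are the 15 with most regions and list members that hold one, and others are named as the place of a region given. No test was made, since the rule uses the comparison itself. Functions were checked on simulated lists and sequences. Leaving out each library, stricter q, other merge distances, windows and scalings were alternatives. Python 3.11.15, NumPy 2.4.6, pandas 2.3.3, SciPy 1.17.1, pysam 0.24.0 and Matplotlib 3.10.9 were used.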

Additional observations from a re-analysis of the deposited data

How the results depend on the processing

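No paired analysis was possible because no result comes from a test. The groups of lists rest on 2 naïve libraries of unequal depth, and a peak missing from R2 says little at its depth. With 1 library left out in turn, 701 to 7926 regions met the rule, and 487 to 1654 lay above the lowest called pileup of all resistant libraries. The level of the R1 libraries is passed by any naïve peak at their depth, so it says nothing of stability. The share on the first 20 Mb of chromosome 19 was 15.2% to 23.6%, at start sites 10.5% to 14.0%, and with AP-1 10.8% to 30.8%. The median log2 ratio of shared regions within 1 Mb of all naïve-only regions, -0.13 in R1 and -0.07 in R2, ranged from -0.12 to -0.028 and from -0.067 to -0.023.

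With naïve peaks of a −log10 q of at least 5 only, 329 regions were left. The first 20 Mb of chromosome 19 held 12.2% of them, and 38.3% held AP-1. With all peaks held to that q, there were 429, with 12.8% and 36.4%. Merging peaks up to 200 bp apart gave 17.1% on the first 20 Mb of chromosome 19. Merging up to 1000 bp apart gave 385 regions, with 10.4% on that stretch and 38.4% with AP-1. Start sites within 500 bp and 2000 bp were near 6.80% and 20.2%. AP-1 was in 42.7% within 100 bp of the summit. Within 200 kb, the log2 ratios were -0.27 and -0.17. Of settings chosen after the data were seen, scattered regions held AP-1 in 36.9% and those of like GC and distance in 32.4%. By summits within 100 bp and with no merging, 548 regions met the rule. Scaling by regions with a peak in all 6 lists put 634 above the level of all 4 resistant libraries. The shares on the first 20 Mb of chromosome 19, with AP-1 and at start sites were taken in 11, 12 and 13 planned settings. In all of them, the reported one included, the first and second were higher and the third lower than in the other both-naïve regions. Under the same settings those regions held 4.27% to 7.33%, 5.06% to 10.4% and 27.0% to 44.8%.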
